A study of Mus musculus with 20 samples.

Results

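Cytosolic ribosomal protein genes encode the proteins of the ribosome, and their transcripts were examined across the layers of the mouse retina and between dark- and light-adapted animals. A gene was taken as a member when its array probe set carried 1 gene symbol of the form Rpl or Rps followed by a number, or was Rplp0, Rplp1, Rplp2 or Rpsa. This gave 61 genes of the 19938 named by such probe sets, and 58 of the 15057 genes tested; Rpl12, Rps15a and Rpl39l were too dim to be tested, with log2 intensities over 5 in fewer than 2 of the 20 arrays. Another 17 genes of the same form, among them Rpl3, Rpl11, Rpl32, Rps24 and Rps27, were named only by probe sets that carry several symbols and are not members. The 58 tested genes comprised 29 of the large subunit, 20 of the small subunit, 3 of the P stalk and 6 paralogues.

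All mice were adult C57BL/6 animals of 7 to 8 weeks. Dark-adapted mice were kept for 3 h at a maximum of 0.4 lux, and light-adapted mice for 6 h in the light phase at 450 lux. Laser capture microdissection gave 4 layers, which were photoreceptor (outer nuclear layer with outer and inner segments), inner nuclear, inner plexiform and ganglion cell, and whole retina samples completed the set of 5 tissues. Dark and light adaptation in each tissue were covered by 2 arrays apiece, hybridised with cRNA from a 2-cycle labelling. Which animals an array came from is not recorded in the labels, so the p-values measure only the spread between the deposited samples, which may be technical, and the number of arrays limits the precision. A captured layer is a mixture of cells, in which fewer cells of a type and less RNA per cell cannot be told apart.

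The cytosolic ribosome joins a small subunit, which decodes the mRNA, to a large subunit, which forms the peptide bond. Ribosomal protein mRNAs typically begin with a run of pyrimidines at the transcription start, the 5′ terminal oligopyrimidine (TOP) motif, through which the mTOR pathway controls their translation together with that of several translation factors. Paralogues of single ribosomal proteins can take the place of the common form in particular tissues. Rod photoreceptors renew their light-sensitive outer segments continuously and have a high demand for protein synthesis.

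Start-site sequences of members that passed a test below are shown because the pyrimidine run is the feature the family is known for. Each window runs from 10 bases before the annotated start to the 20th base of the transcript, 5′ to 3′ on the gene's strand (RefSeq, build GRCm38.p6), with runs of 8 or more consecutive C or T bases in capitals.

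Rps6, chr4:86857348-86857377, minus strand: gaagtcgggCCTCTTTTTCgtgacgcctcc

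Rpl27a, chr7:109519185-109519214, plus strand: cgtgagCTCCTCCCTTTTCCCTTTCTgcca

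Rps9, chr7:3704031-3704060, plus strand: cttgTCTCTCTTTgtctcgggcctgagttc

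Rpl4, chr9:64173377-64173406, plus strand: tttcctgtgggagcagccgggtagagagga

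Rpl5, chr5:107900518-107900547, plus strand: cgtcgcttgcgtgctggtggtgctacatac

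Rps7, chr12:28635934-28635963, minus strand: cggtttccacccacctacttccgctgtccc

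Rpl23, chr11:97782420-97782449, minus strand: gtccggtcacgtggctgagtgggcggggcc

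Rpl36a, chrX:134585644-134585673, plus strand: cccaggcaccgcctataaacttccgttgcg

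Rps6, Rpl27a and Rps9 carry such a run in this window, and the other 5 do not. A start window was found in the promoter table for 46 of the 58 members. Of these, 14 (30.4%) held the run on the gene's strand, against 3517 of 27025 genes (13%) in the whole table. On the opposite strand the run stood in 4.35% of the members and 15.4% of all genes. Among members that passed a test in at least 1 comparison 5 of 20 (25%) held it, and among those that passed in none 9 of 26 (34.6%). The match is a description of these letters at the annotated start. It depends on where that start was placed and on the length required, and a member without it can hold a shorter run.

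On the arrays the median of the members' mean log2 intensities was 7.85, and the floor set for low values was 3. Rpl21, Rpl29 and Rps2 had the highest means, and Rpl3l, Rps3a1 and Rpl32l the lowest. These are signals of probe sets with affinities of their own and do not rank the mRNAs by abundance. Values of a ribosomal protein gene can include signal from processed pseudogenes of the same sequence, and 39 of the 58 members had more than 1 kept probe set, of which the brightest was used.

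No tissue stood apart in the level of the family as a whole. Its median log2 intensity per array averaged 8.03 ± 0.19 for the photoreceptor layer, 7.88 ± 0.12 in the inner nuclear layer, 7.92 ± 0.16 in the inner plexiform layer, 7.93 ± 0.10 in the ganglion cell layer and 7.78 ± 0.14 for whole retina (SD, n = 4 each). The ranges of the 4 arrays overlapped between any 2 of these tissues. For a single member, the range of the layer means was typically 0.52 on the log2 scale, against 0.43 over all genes. It exceeded 1 in 5 members (8.62%), against 9.20% of all genes. Rpl38, a large subunit protein, was the most even, with layer means within 0.067 of each other. Rpl8, a large subunit protein beside the peptidyl transferase centre, was the most uneven, with layer means up to 1.44 apart. Across the 20 arrays the mean correlation between pairs of members was 0.103, against 0.017 between pairs of all genes; these points share arrays, tissue and normalisation.

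**Figure D1:**
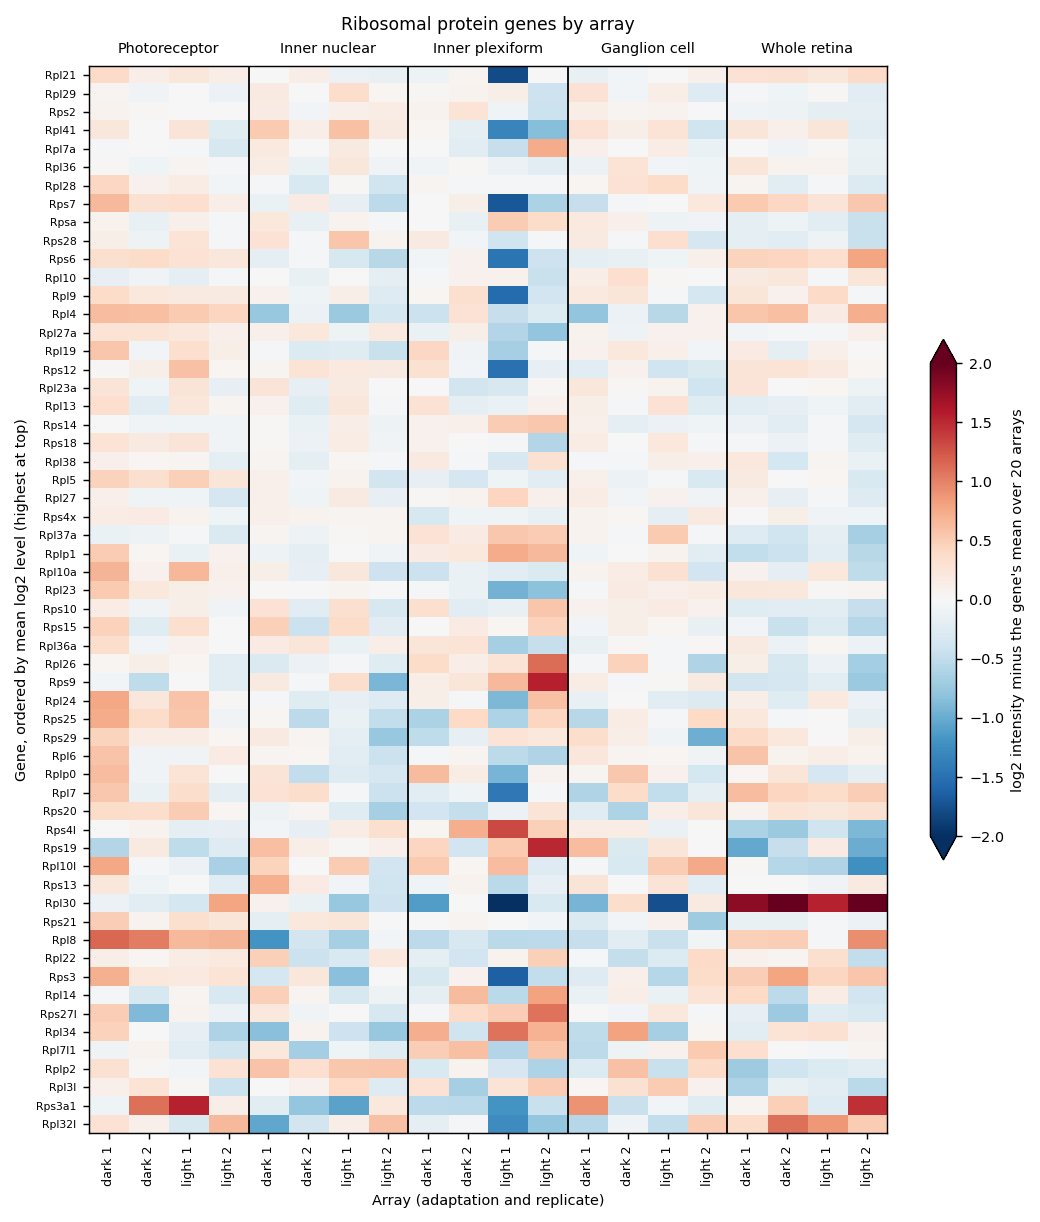
Log2 intensity of each of the 58 tested members minus its mean over the 20 arrays (colour, log2 units), with genes in rows ordered by mean level and arrays in columns grouped by tissue. The photoreceptor columns are high for Rpl8 and Rpl4, the whole retina columns for Rpl30, and the column of light-adapted inner plexiform layer replicate 1 is blue for Rps7, Rpl9, Rps6, Rps12 and Rpl21.

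Some arrays stood apart from the rest. On average, rod and ganglion cell markers followed the labelled layers. The 7 rod markers averaged 9.38 ± 0.07 in the photoreceptor layer and 9.15 ± 0.05 in the whole retina. In the other layers they averaged 6.26 to 6.65, with a wider spread between arrays. Single ganglion cell layer arrays ran from 5.45 to 7.66 (SD 1.00). Inner nuclear layer arrays ran from 5.67 to 7.46 (SD 0.87), and inner plexiform ones from 6.19 to 7.09 (SD 0.37). What part this rod signal had in the layer differences was not tested. The 7 ganglion cell markers averaged 7.80 ± 0.46 in the ganglion cell layer and 4.90 to 6.08 elsewhere (log2, SD, n = 4 each). Not all lists were as distinct. The 6 amacrine cell markers averaged 6.40 in the inner plexiform and 6.08 in the inner nuclear layer. The 4 horizontal cell markers averaged 5.68 to 6.30 over the 5 tissues. Across genes, the light-adapted pair of the inner plexiform layer correlated with arrays of the other groups at medians of 0.738 and 0.768. Whole retina arrays were low by the same measure, at 0.783 and 0.770 for the dark-adapted replicates 1 and 2 and 0.721 for light-adapted replicate 2, the lowest of the 20; the other 15 lay between 0.817 and 0.876. Light-adapted inner plexiform layer replicate 1 held the lowest value of the 20 arrays for 19 of the 58 members (32.8%, beside 11.3% of all genes), and replicate 2 the highest for 11 (19.0%, beside 12.1%). Dark-adapted photoreceptor layer replicate 1 held the highest value for 14 members (24.1%, beside 2.27%), and light-adapted whole retina replicate 2 the lowest for 12 (20.7%, beside 21.1%). In 5 light-adapted arrays (photoreceptor layer 1, inner nuclear layer 1, ganglion cell layer 1 and 2 and whole retina 1) Y-linked probe sets had median intensities of 192.25 to 306.2, against 8.6 to 25.05 in the other 15. Counts of members that passed are given below also without those 5 arrays, and without single arrays or pairs that move them. For those fits, and for other scalings of the arrays, the share of all genes that passed is not given. Such counts do not set the members apart from other genes.

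In the photoreceptor layer, 7 of the 58 members were higher than in the other 3 layers and none was lower (12.1%; over all genes 12.9% passed, 7.26% upwards and 5.69% downwards). Here and below a gene passed when its Benjamini-Hochberg adjusted p over all 15057 genes, from 1 limma fit, was under 0.05. The 7 were Rpl8, Rpl4, Rps7, Rps6, Rps20, Rpl5 and Rpl23; 4 belong to the large subunit and 3 to the small one. Before adjustment 19 members had a p under 0.05 (32.8%, beside 26.9% of all genes). The median difference was 0.107 over the members and -0.056 over all genes.

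Rpl8 had the largest difference. Its log2 intensities in the photoreceptor layer were 7.09 and 6.96 in the dark-adapted and 6.58 and 6.62 in the light-adapted arrays, against a lowest value of 4.75, a median of 5.49 and a highest of 5.89 in the 12 arrays of the other layers. All 4 photoreceptor arrays lay above those 12. The difference was 1.32 ± 0.18 (log2, SE; 2.49-fold; adjusted p = 7.8e-05). It was 1.60 among dark-adapted and 1.04 among light-adapted arrays and passed in both (adjusted p = 0.00087 and 0.024). In order of its means, Rpl8 stood at 6.81 ± 0.25 for the photoreceptor layer, 6.41 ± 0.39 for whole retina, 5.65 ± 0.20 in the ganglion cell layer, 5.47 ± 0.11 in the inner plexiform layer and 5.37 ± 0.49 in the inner nuclear layer (SD, n = 4 each), with overlapping arrays between neighbours except between the whole retina and the ganglion cell layer.

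Rpl4, which lines part of the exit tunnel of the large subunit, had log2 intensities of 9.23, 9.21, 9.13 and 9.04 in the photoreceptor layer, against 7.82 to 8.90 with a median of 8.22 in the other layers. The photoreceptor arrays again lay above the other 12, by 0.90 ± 0.17 (SE; adjusted p = 0.0021). Rps6, the small subunit protein phosphorylated by S6 kinase downstream of mTOR, was at 9.04, 9.09, 9.01 and 8.95 in the photoreceptor layer, against 7.25 to 8.82 with a median of 8.56, a difference of 0.57 ± 0.15 (adjusted p = 0.016). Rpl5, which carries the 5S rRNA into the large subunit, was at 8.77, 8.64, 8.78 and 8.56, against 7.94 to 8.42 with a median of 8.22, a difference of 0.49 ± 0.12 (adjusted p = 0.0091). For both genes, too, the photoreceptor arrays did not overlap the others.

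The other 3 passed with overlapping arrays, and their names were chosen after their values were seen. Rps7, a small subunit protein needed for its assembly, differed by 0.62 ± 0.16 (adjusted p = 0.016). Rps20, of the head of the small subunit, differed by 0.49 ± 0.13 (adjusted p = 0.015), and Rpl23, of the large subunit, by 0.36 ± 0.10 (adjusted p = 0.019). Further probe sets of Rps6 (7), Rpl5 (4), Rps7 (2) and Rpl23 (1) all gave positive differences. For the fits with arrays left out that follow, the share of all genes that passed is not given. Without the 5 arrays with Y-linked signal 2 members passed, Rpl8 (1.29, adjusted p = 0.001) and Rpl4 (0.88, adjusted p = 0.023). Leaving out replicate 1 of the light-adapted photoreceptor layer, or replicate 1 of the dark-adapted one, likewise left 2 members, and leaving out replicate 2 of the light-adapted inner plexiform layer gave 12.

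**Figure D2:**
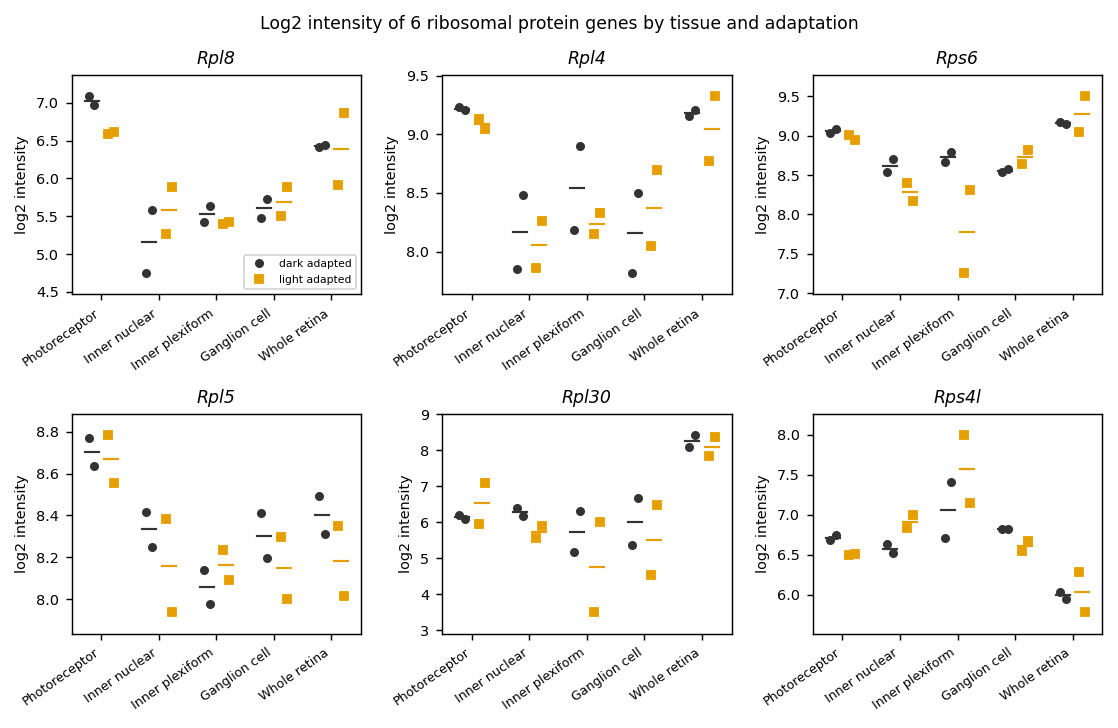
Log2 intensity of Rpl8, Rpl4, Rps6, Rpl5, Rpl30 and Rps4l in each array (points), by tissue, for dark-adapted (circles) and light-adapted (squares) mice, with a line at the mean of each pair. The photoreceptor points lie above the other layers for the first 4 genes, and the whole retina points lie apart from all layers for Rpl30 (above) and Rps4l (below).

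In the inner nuclear layer no member passed against the other 3 layers (limma), and 0.611% of all genes did. At an unadjusted p under 0.05 there were 8 members, 2 higher and 6 lower (13.8%, beside 10.3% of all genes). The smallest p-values belonged to Rpl8, with a difference of -0.60 ± 0.18 (adjusted p = 0.18), Rpl41, the smallest ribosomal protein, with 0.50 ± 0.15 (adjusted p = 0.18), and Rplp2, of the stalk that binds translation factors, with 0.53 ± 0.19 (adjusted p = 0.29). In the ganglion cell layer, again, none passed (limma), where 1.87% of all genes did. At an unadjusted p under 0.05 there was 1 member (1.72%, beside 10.8% of all genes). Rps21 differed there by -0.36 ± 0.14 (adjusted p = 0.31), Rpl10, which joins the large subunit last, by 0.21 ± 0.11 and Rplp1 by -0.21 ± 0.11 (adjusted p = 0.54 each). All members lay between -0.36 and 0.21 in this layer.

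The inner plexiform layer, which holds mainly synapses and neurites, had 6 members higher and 4 lower than the other 3 layers (17.2%; over all genes 13.6% passed, 8.29% upwards and 5.29% downwards). Each of the 10 overlapped between the sides, and all were named after their values were seen. Before adjustment 24 members had a p under 0.05 (41.4%, beside 29.8% of all genes). The split between the directions depended on the scaling: quantile normalisation gave 3 higher of 8.

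Among the lower 4, Rpl23 was at 7.85 and 7.74 in the dark-adapted and 6.93 and 7.05 in the light-adapted inner plexiform layer, against 7.84 to 8.39 with a median of 7.96 in the other layers. The light-adapted pair lay below all other arrays, and the dark-adapted pair at the lower edge of the other layers. The difference was -0.59 ± 0.10 (adjusted p = 0.0012). Rpl41 was at 9.26 and 9.03 in the dark-adapted and 7.89 and 8.36 in the light-adapted pair, against 8.82 to 9.79 with a median of 9.42, a difference of -0.74 ± 0.15 (adjusted p = 0.0046). Rpl27a, close to the peptidyl transferase centre, differed by -0.47 ± 0.10 (adjusted p = 0.0064), and Rps7 by -0.60 ± 0.16 (adjusted p = 0.02).

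Among the higher 6, Rps9, a small subunit protein at the mRNA entry, was at 7.74 and 7.85 in the dark-adapted and 8.25 and 9.16 in the light-adapted inner plexiform layer, against 6.70 to 7.96 with a median of 7.60. Only its light-adapted pair lay above the other layers. The difference was 0.72 ± 0.19 (adjusted p = 0.022). The paralogue Rps4l differed by 0.63 ± 0.15 (adjusted p = 0.013), Rpl26, beside the tunnel exit, by 0.55 ± 0.16 (adjusted p = 0.036), and the stalk protein Rplp1 by 0.45 ± 0.11 (adjusted p = 0.015). Rpl37a and Rps14, of the large subunit and of the small subunit's platform, differed by 0.37 ± 0.12 and 0.35 ± 0.10 (adjusted p = 0.045 and 0.026). Single further probe sets of Rplp1 and Rps14 gave differences of -0.03 and -0.69, so the direction of these 2 genes depended on the probe set.

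These inner plexiform layer differences rested on the light-adapted arrays. Without those 2 arrays no member passed, and Rpl23 differed by -0.19, Rpl41 by -0.23 and Rps7 by 0.01 (adjusted p = 0.59, 0.69 and 0.98). Among light-adapted arrays alone 19 members passed, and among dark-adapted arrays alone none. The share of all genes that passed in these fits is not given here, so the counts do not set the members apart from other genes. Without the arrays with Y-linked signal, 4 passed (Rpl23, Rpl41, Rps9 and Rpl37a).

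The study's main contrast set dark against light adaptation inside a tissue, 2 arrays against 2. In the inner plexiform layer, 4 members were higher in the dark and none lower (6.9%; over all genes 1.83% passed, 0.717% upwards and 1.12% downwards). These 4 were Rps7, Rpl9, Rpl36a and Rpl23. At an unadjusted p under 0.05 there were 22 members, 15 higher and 7 lower in the dark (37.9%, beside 18.7% of all genes), and the median difference was 0.108 over the members and -0.027 over all genes.

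Rps7 was at 8.86 and 8.97 in the dark-adapted inner plexiform layer, against 7.17 and 8.22 in the light-adapted one (difference 1.22 ± 0.28, SE; adjusted p = 0.037). Rpl9, a large subunit protein near the base of the stalk, was at 8.64 and 8.92 in the dark, against 7.07 and 8.23 in the light (1.13 ± 0.28; adjusted p = 0.049). The pairs did not overlap for either gene, and light-adapted replicate 1 was by far the lower of its pair.

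Rpl36a, a large subunit protein near the exit site of the tRNA, was at 8.01 and 8.04 in the dark, against 7.10 and 7.31 in the light (0.82 ± 0.19; adjusted p = 0.039). Rpl23 was at 7.85 and 7.74 in the dark, against 6.93 and 7.05 in the light (0.81 ± 0.17; adjusted p = 0.027). Here both light-adapted arrays were low. All further probe sets of the 4 genes (7 for Rpl9, 2 for Rps7, 1 each for Rpl36a and Rpl23) gave differences of the same sign, from 0.75 to 1.76.

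**Figure D3:**
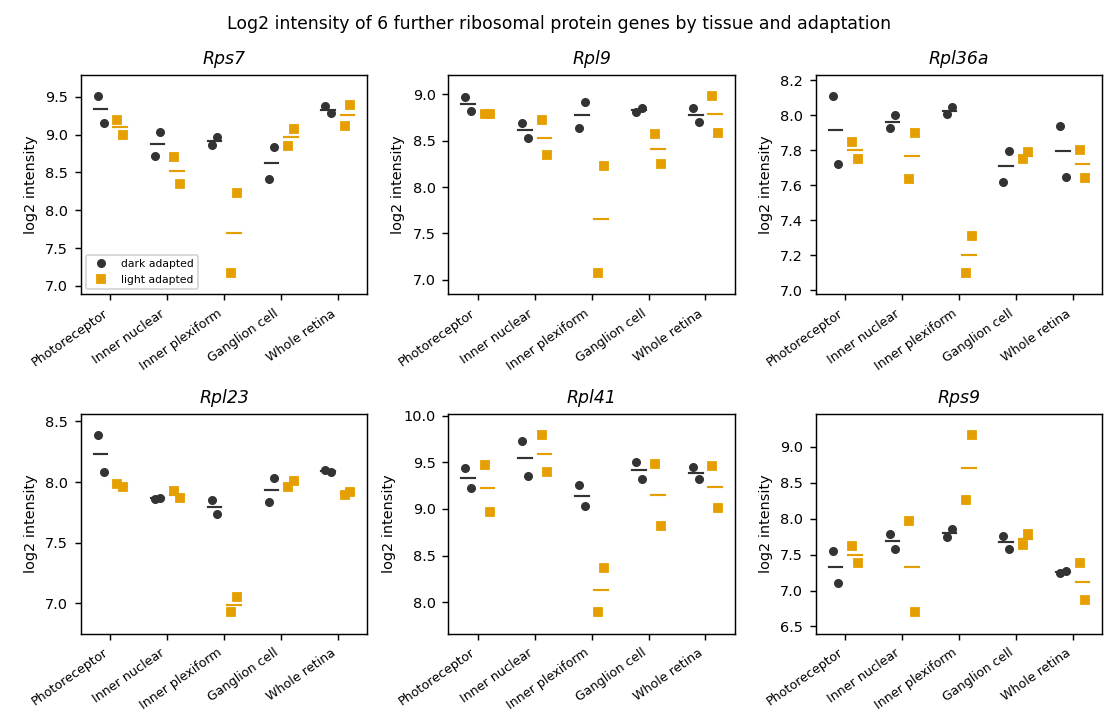
Log2 intensity of Rps7, Rpl9, Rpl36a, Rpl23, Rpl41 and Rps9 in each array (points), by tissue, for dark-adapted (circles) and light-adapted (squares) mice, with a line at the mean of each pair. The light-adapted inner plexiform layer points lie below the other tissues for the first 5 genes and above them for Rps9.

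The 4 calls were not firm, though the share of all genes that passed in the fits below is not given. No member passed without light-adapted inner plexiform layer replicate 1, where Rps7 differed by 0.69, Rpl9 by 0.55, Rpl36a by 0.72 and Rpl23 by 0.74, nor without either dark-adapted array of that layer, while 8 passed without light-adapted replicate 2. None passed when the arrays with Y-linked signal, which lie in other tissues, were left out of the fit, or when only the 4 arrays of the comparison were fitted. Some marker lists also moved between these pairs. The 6 Müller glia markers averaged 6.65 and 7.15 in the dark-adapted arrays and 5.91 and 6.33 in the light-adapted ones (summed intensities over the 4 arrays 473.2 to 1230.4, none of the 6 at the floor throughout). For 6 bipolar cell markers the averages were 6.53 and 6.79 in the dark and 6.12 and 6.41 in the light. Within this list Grm6 was lower in the dark, at 6.07 and 6.26, against 6.55 and 6.55 in the light. The averages of 3 pigment epithelium markers were also lower in the dark, at 5.13 and 5.01, against 5.56 and 5.17 in the light. For 7 ganglion cell markers they overlapped, at 5.61 and 6.37 in the dark and 5.14 and 5.64 in the light. The averages of the remaining lists overlapped too. What part these cells had in the ribosomal protein differences was not tested.

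In the other 4 tissues no member passed between dark and light. Of all genes 0.0465% passed for the photoreceptor layer, 0% for the inner nuclear layer, 0.00664% in the ganglion cell layer and 0.0266% for whole retina. No member reached an unadjusted p under 0.05 (limma) in the photoreceptor layer, beside 1.49% of all genes, and none for whole retina, beside 0.897%. In both the inner nuclear and the ganglion cell layer there were 3 (5.17%), beside 3.14% and 4.08% of all genes at the same unadjusted threshold. In the photoreceptor layer the smallest p-values belonged to Rpl10l (0.75 ± 0.37), Rpl23 (0.26 ± 0.17) and Rplp1 (0.30 ± 0.19). In the inner nuclear layer they belonged to Rps13 (0.66 ± 0.24), Rpl32l (-1.06 ± 0.42) and Rps29 (0.61 ± 0.26), and in the ganglion cell layer to Rps29 (0.78 ± 0.26), Rps20 (-0.61 ± 0.22) and Rpl10l (-0.80 ± 0.37). In the whole retina they belonged to Rpl10l (0.64 ± 0.37), Rplp0 (0.41 ± 0.33) and Rpl23 (0.18 ± 0.17). The adjusted p rounded to 1 for each of these. Both light-adapted ganglion cell layer arrays and neither dark-adapted one carried Y-linked signal. Adaptation and that signal cannot be told apart in this layer.

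Averaged over the 5 tissues, dark minus light was positive for 40 of the 58 members and for 47.7% of all genes. The median was 0.071, against -0.007 over all genes. All 5 arrays with Y-linked signal were light-adapted, so in this average adaptation is partly confounded with that signal. No member passed (limma), where 0.0133% of all genes did. At an unadjusted p under 0.05 there were 9, all higher in the dark (15.5%, beside 6.11% of all genes in either direction). The smallest p-values were those of Rpl23 (0.23 ± 0.07), Rpl6 (0.31 ± 0.10) and Rpl9 (0.35 ± 0.12), all large subunit genes with an adjusted p of 0.71. In 5 members (8.62%) the dark mean was the higher one in all 5 tissues, beside 3.48% of all genes, and in none was it the lower one in all, beside 3.73%. A moderated F test of whether the dark effect differed between tissues called no member, where 0.0266% of all genes passed (smallest adjusted p = 0.74). Unadjusted, 7 had a p under 0.05 (12.1%, beside 5.90% of all genes). Between dark and light, Rpl8 differed by 0.43 ± 0.31 in the photoreceptor layer and by -0.41 ± 0.31 in the inner nuclear layer. For the inner plexiform layer, ganglion cell layer and whole retina its differences were 0.12, -0.09 and 0.03, each ± 0.31.

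The whole retina was set against the mean of the 4 captured layers, a comparison that also contrasts undissected with dissected tissue. Of the members, 8 were higher and 10 lower (31%; over all genes 48.5% passed, 19.9% upwards and 28.6% downwards). Unadjusted, 24 had a p under 0.05 (41.4%, beside 56.9% of all genes). The members' median was -0.015 and that of all genes -0.184. Median centring of the arrays moved the split to 10 higher of 15.

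Rpl30, a large subunit protein, was at 8.10 and 8.42 in the dark-adapted and 7.84 and 8.37 in the light-adapted whole retina, against 3.50 to 7.10 with a median of 6.04 in the 16 arrays of the layers. All 4 whole retina arrays lay above every layer array. The difference was 2.34 ± 0.38 (SE; 5.08-fold; adjusted p = 0.0002), the largest of any member in any of these comparisons. The paralogue Rps4l was at 6.04, 5.94, 6.29 and 5.78 in the whole retina, against 6.49 to 8.00 with a median of 6.73, below every layer array (-0.83 ± 0.15; adjusted p = 0.0004). Rpl30 and Rps4l passed among dark-adapted and among light-adapted arrays alone, as did Rplp1, which is listed below.

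The remaining 16 overlapped between the sides and were named after their values were seen. Those higher in the whole retina were Rpl32l (0.89), Rps3 (0.71), Rpl4 (0.64), Rps6 (0.63), Rpl7 (0.60), Rpl8 (0.58) and Rps7 (0.54), with adjusted p from 0.0023 to 0.026. Those lower were Rpl10l (-0.74), Rps19 (-0.72), Rplp1 (-0.53), Rps9 (-0.53), Rplp2 (-0.51), Rpl3l (-0.47), Rpl37a (-0.47), Rps15 (-0.42) and Rpsa (-0.29), with adjusted p from 0.0011 to 0.0497. Without light-adapted whole retina replicate 2, 5 members passed: Rpl30, Rps4l, Rplp1, Rps6 and Rpl32l. Without the arrays with Y-linked signal 15 passed; Rpl7, Rplp2 and Rps15 then missed the threshold, and Rpl3l and Rpl32l were too dim to be tested. With the light-adapted pair of the inner plexiform layer left out 17 passed, and Rpl3l, Rps9, Rps15 and Rpsa missed it. The share of all genes that passed in these fits is not given.

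**Figure D4:**
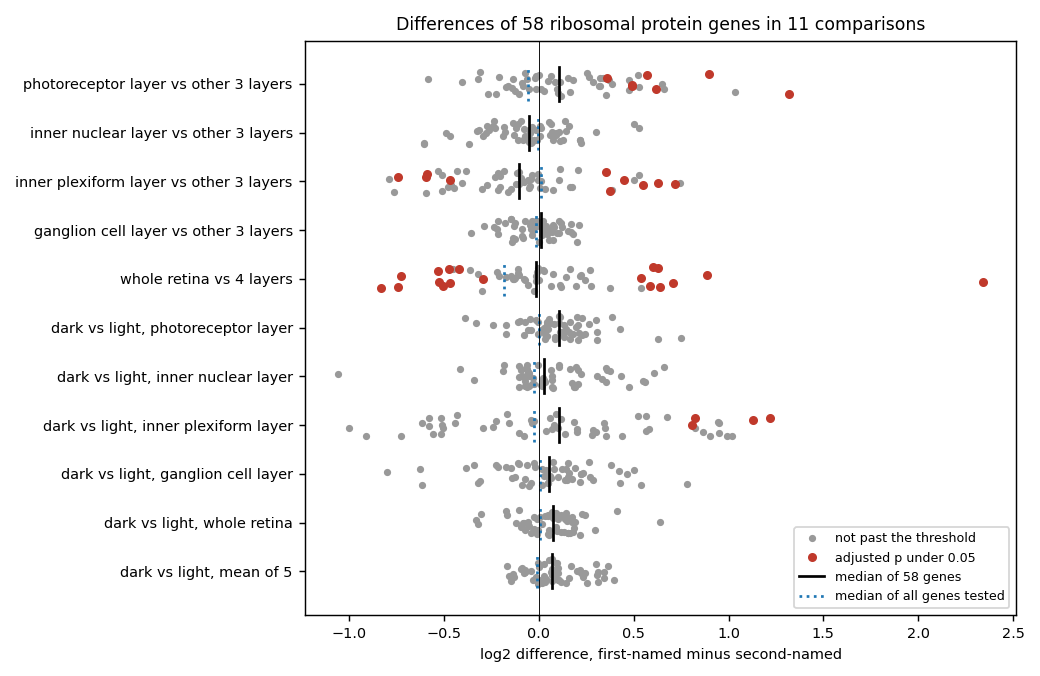
Log2 difference (first-named minus second-named group) of each of the 58 tested members in 11 comparisons, with members past the threshold in red, the median of the members as a solid line and that of all genes as a dotted line. Red points lie in 4 of the 11 rows, and those of the photoreceptor layer and of dark against light in the inner plexiform layer are all to the right of 0.

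The P stalk, formed by Rplp0, Rplp1 and Rplp2 on the large subunit, had Rplp1 and Rplp2 lower in the whole retina and Rplp1 higher in the inner plexiform layer. The inner plexiform call was lost without the light-adapted arrays of that layer, and its direction depended on the probe set. Rplp2 in the whole retina did not pass under quantile normalisation or median centring. Rplp1 was at 7.64 ± 0.15 in the whole retina, against 8.19 ± 0.27, 7.97 ± 0.08, 8.50 ± 0.30 and 8.01 ± 0.12 in the photoreceptor, inner nuclear, inner plexiform and ganglion cell layers. Rplp2 was at 4.41 ± 0.22 in the whole retina, against 4.95 ± 0.18, 5.31 ± 0.10, 4.52 ± 0.28 and 4.88 ± 0.50 in those layers. Rplp0 was at 7.23 ± 0.26 in the whole retina and at 7.49 ± 0.31, 7.08 ± 0.33, 7.27 ± 0.66 and 7.38 ± 0.36 in the layers (log2, SD, n = 4 each), and passed in no comparison. Rpsa, a small subunit protein also known as a laminin receptor, was at 8.59 ± 0.14 in the whole retina and between 8.83 and 9.01 in the layer means, and passed only against the whole retina.

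The paralogues were set beside their parent genes where both had a member probe set. Rpl10l, known for replacing Rpl10 in male germ cells, was at 5.80 ± 0.51 in the whole retina, against layer means of 6.39 to 6.63, and Rpl10 itself was at 8.87 ± 0.12 in the whole retina, against 8.59 to 8.83. Rps4l was at 7.32 ± 0.54 in the inner plexiform layer and 6.61 to 6.74 in the other layers, while its parent Rps4x was at 8.02 ± 0.11 there and 8.20 to 8.26 in the others. Rpl7l1, a nucleolar relative of Rpl7, passed in no comparison (5.05 to 5.52 in the tissue means), and Rpl7 was at 7.63 ± 0.11 in the whole retina, against 6.71 to 7.29 in the layers. Rpl3l, known from striated muscle, was at 4.23 ± 0.23 in the whole retina, against 4.60 to 4.84 in the layers. Rpl32l, also dim, went the other way, at 4.96 ± 0.34 in the whole retina against 3.69 to 4.43 in the layers. Rps27l was at 5.02 to 5.87 in the tissue means and passed in no comparison, as did Rpl22 at 5.79 to 6.02. Rpl39l, dim in all arrays, had intensities of 6.7 to 17.8 on the linear scale.

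Other genes of the translation machinery were counted from lists. Of 34 tested translation factors and further TOP genes, 10 were higher and 1 lower in the photoreceptor layer (32.4%, beside 12.9% of all genes), with a median of 0.418 where the members had 0.107. Pabpc1, the poly(A)-binding protein and a TOP gene, differed by 1.13 ± 0.14 (adjusted p = 2.9e-05) and Tpt1, also a TOP gene, by 0.74 ± 0.13 (adjusted p = 0.00092). Eef1a2, the neuronal and muscle form of the elongation factor, was the 1 lower gene (-1.40 ± 0.19; adjusted p = 7.6e-05). Of 34 ribosome biogenesis genes 1 was higher (Dkc1, 0.92 ± 0.26) and 1 lower (Bysl, -0.63 ± 0.19) in this layer (5.88%, beside 12.9% of all genes). Of 19 genes of mTOR and TOP control 2 (10.5%, beside 12.9%) were higher (Cnbp, 0.80 ± 0.13, and Pdpk1, 0.67 ± 0.17). Of 64 mitochondrial ribosomal protein genes 3 (4.69%, beside 12.9%) were higher (Mrpl18, Mrpl24 and Mrpl39, by 0.64 to 0.71).

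In the inner plexiform layer the same lists gave 1 higher and 3 lower, 3 and 3, 1 and 1, and 8 and 3 genes, in the order just used. These were 11.8%, 17.6%, 10.5% and 17.2% of the lists, beside 13.6% of all genes. In the inner nuclear layer, 1 gene of all 4 lists passed, Pabpc1 (-0.69 ± 0.14, adjusted p = 0.032). It made 2.94% of its list, beside 0.611% of all genes. In the ganglion cell layer 2 passed, Eef1a2 (1.03 ± 0.19, adjusted p = 0.0079) and the biogenesis gene Taf1a (1.14 ± 0.28, adjusted p = 0.042). Each made 2.94% of its list, beside 1.87% of all genes. In the whole retina 16 translation factor and TOP genes were higher and 1 lower (50%, beside 48.5% of all genes). There 9 biogenesis genes were higher and 6 lower (44.1%), 8 genes of mTOR and TOP control higher and 6 lower (73.7%), and 8 mitochondrial ribosomal protein genes higher and 14 lower (34.4%). No gene of the 4 lists passed between dark and light in any tissue or on average.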

How the data were processed

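The authors processed the 20 arrays with GCRMA, which corrects background and normalises between arrays, per the submitters' processing notes (version not given). The deposited values are intensities, and their linear scale was read from the values. Here, log2 was taken after raising values below 8 to 8. Probe sets with 1 gene symbol in the platform table and a log2 value over 5 in at least 2 arrays were kept, and a gene was its probe set with the highest mean. All tests came from 1 limma fit (limma 3.58.1, R 4.3.3) with 10 group means and an intensity trend, two-sided, adjusted within each comparison. In simulated data a small set of genes was changed, with independent noise and no other differences between groups. Of genes changed by 0.5, 1 and 2 (log2), 14.5%, 84% and 98.5% were recovered in the photoreceptor comparison. Between dark and light in the inner plexiform layer 0%, 28% and 88.5% were recovered. Up to 12 unchanged genes were called. The real arrays differ in more ways, so these rates do not give the power of the tests above.

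The members, gene lists and alternatives were chosen with earlier results of these data known. Named in each comparison were passing members whose arrays did not overlap, or the 3 with the smallest p where fewer than 5 passed, besides Rpl8, stalk genes, Rpsa, paralogues with their parents, the 3 brightest and the 3 dimmest. Start windows came from a RefSeq promoter table. Alternatives changed the normalisation, filter, probe set rule, pseudocount, trend, block and arrays used.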

Additional observations from a re-analysis of the deposited data

How the results depend on the processing

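Counts below are of members past the threshold. The share of all genes under each alternative is not given here, so a count does not set the members apart from other genes. With the replicate number as a block (replicate block) the counts were 12 in the photoreceptor layer (7 without the block), 2 in the inner nuclear layer (0; Rpl8 at -0.60 and Rpl41 at 0.50, adjusted p = 0.045 and 0.036 with the block), 19 in the inner plexiform layer (10) and 7 for dark against light in the inner plexiform layer (4). Replicate differences of 45 pairs of groups correlated at 0.0059 to 0.48, over 0.1 in 32 but not in all, and the labels do not say that a number marks shared animals or days, so the fit without the block was kept. Without the arrays with Y-linked signal the counts were 2 in the photoreceptor layer, 4 in the inner plexiform layer and 0 for dark against light in the inner plexiform layer. Among light-adapted arrays alone they were 1 in the photoreceptor layer, 19 in the inner plexiform layer and 9 in the whole retina; among dark-adapted arrays alone 3, 0 and 3. The inner plexiform layer had 0 once its light-adapted arrays were left out. For dark against light in the inner plexiform layer, a filter at log2 over 7 gave 7, no intensity trend gave 1, and the arrays of the comparison alone gave 0. Leaving out single arrays gave 2 to 12 in the photoreceptor layer, 5 to 13 in the inner plexiform layer, 5 to 21 in the whole retina, 0 to 8 for dark against light in the inner plexiform layer, 0 to 1 in the F test, and 0 in the other comparisons.

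Of 1896 values of single named members under alternatives, 1632 kept direction and side of the threshold, 260 lost the call, 2 gained it and 2 reversed. Named results that had not passed in the main fit are among these values, and for them keeping the side only means staying uncalled. The 260 lost calls fall on results that had passed, so the 1632 do not measure how firm those calls were. Rps7 in the inner plexiform layer was at 0.0134 without the light-adapted arrays of that layer (-0.60 with them). Rps14 in that layer was at -0.17 with the mean of its probe sets (0.35 with the brightest). The cause of these 2 reversals was not tested. Rpl8 in the photoreceptor layer (1.04 to 1.60) passed in each of 32 alternatives. In the whole retina Rpl30 (2.02 to 2.50), Rps4l (-0.999 to -0.58) and Rplp1 (-0.65 to -0.43) did so too. Without the Y-signal arrays, which include both light-adapted arrays of the ganglion cell layer, no dark against light difference could be had there.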

Other observations

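Probe sets that carry several gene symbols, at least 1 of them a ribosomal protein gene, were kept out of the members because their signal cannot be assigned to 1 gene. Among the 25704 probe sets kept whatever their symbol, 233 were of this kind. In the inner plexiform layer 1 of the 233 was higher and 46 lower than in the other 3 layers (20.2%, beside 18.1% of all kept probe sets), with a median of -0.273, where the 58 single-symbol members split 6 higher and 4 lower. Their median log2 intensity per array was 8.27 to 9.06 in the inner plexiform layer and 8.95 to 9.33 in the other 3 layers. In the photoreceptor layer 19 were higher and none lower (8.15%, beside 9.58%). In the whole retina 39 were higher and 1 lower (17.2%, beside 40.1%). Between dark and light in the inner plexiform layer 9 were higher in the dark and none lower (3.86%, beside 5.21%), with a median of 0.366. Many of these probe sets share sequence, so their counts are not counts of genes.

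In 16 of the 58 members (27.6%) the dark pair lay wholly above the light pair in 1 tissue and wholly below it in another, beside 28.4% of all genes. Rps29 was lower in the dark in the inner plexiform layer (-0.58) and higher in the ganglion cell layer (0.78), with an unadjusted F test p of 0.016 and an adjusted p of 0.74. Rps20 had 0.44 in the inner nuclear layer and -0.61 in the ganglion cell layer, and Rpl10l 0.75 in the photoreceptor layer and -0.80 in the ganglion cell layer. Adaptation and Y-linked signal cannot be told apart in the ganglion cell layer, where both light-adapted arrays and neither dark-adapted one carried that signal. The F test called none of the 16.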
